A study of Homo sapiens with 24 samples.

Results

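The genes described here are 8 human genes of the metallothionein and zinc response: the metallothionein genes MT1M, MT1E, MT1F, MT1G, MT1X and MT2A, the zinc-sensing transcription factor gene MTF1 and the zinc exporter gene SLC30A1. They were picked by name, with MT1M already known as one of the genes that fell most after KEAP1 disruption in cells given control siRNA, so the values from those cells are given as a description without a test. Each of the 8 had 1 row in the count table, out of 12009 gene identifiers, and all 8 were among the 11152 genes kept for testing.

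RNA was profiled in HepG2 cells, a line established from a human liver cancer. Cells carried Cas9 with 1 of 3 guides: sgCtrl, which cuts the AAVS1 safe-harbor locus, or sgKEAP1-1 or sgKEAP1-2, which cut KEAP1. They were transfected with siNC, a non-targeting siRNA, or with siRNAs against both TFEB and TFE3 (siTFEB/siTFE3), and collected 72 h later. The 6 combinations of guide and siRNA had 4 libraries each, 24 in all. All cells, the controls included, had been transduced with a Cas9 lentivirus and selected with puromycin. The study's methods describe no isolation of single clones, so edited and unedited cells may be mixed.

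Metallothioneins are small, cysteine-rich proteins that bind zinc and copper and buffer their free levels; the liver makes them in large amounts. When zinc rises, MTF1 binds metal response elements (MREs) in the promoters of metallothionein genes and of SLC30A1, whose product ZnT1 pumps zinc out of the cell. KEAP1 holds the transcription factor NRF2 at a low level, and NRF2 binds antioxidant response elements (AREs) in its target genes. TFEB and TFE3 drive lysosomal genes. The comparison of the guides asks how the metal-binding genes stand when KEAP1 is disrupted, and the knockdown asks whether their levels differ without TFEB and TFE3.

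The 6 metallothionein genes lie together on chromosome 16. In GRCh37 MT2A is at chr16:56642496-56643409, MT1E at chr16:56659387-56661024, MT1M at chr16:56666571-56667893, MT1F at chr16:56691643-56694610 and MT1X at chr16:56716382-56718108, all on the forward strand, and MT1G is at chr16:56700642-56701977 on the reverse strand. Because MTF1 acts through the promoters, the 250 bases before the start site are shown for the members where this stretch held the MRE core, TGCACNC or TGCGCNC on either strand. Sequences are from RefSeq on GRCh38.p14, written 5′ to 3′ along the gene, with core matches in capitals. RefSeq entries were matched for 4 of the 8 members, and MT1M, MT1E, MT1F and MT1G were not matched.
MT2A, chr16:56608334-56608583, forward strand: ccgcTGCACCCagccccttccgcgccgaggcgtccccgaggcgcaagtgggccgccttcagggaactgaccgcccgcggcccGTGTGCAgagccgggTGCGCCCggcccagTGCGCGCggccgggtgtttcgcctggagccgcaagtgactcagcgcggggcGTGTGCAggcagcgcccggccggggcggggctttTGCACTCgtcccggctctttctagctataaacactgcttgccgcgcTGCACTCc
MT1X, chr16:56682220-56682469, forward strand: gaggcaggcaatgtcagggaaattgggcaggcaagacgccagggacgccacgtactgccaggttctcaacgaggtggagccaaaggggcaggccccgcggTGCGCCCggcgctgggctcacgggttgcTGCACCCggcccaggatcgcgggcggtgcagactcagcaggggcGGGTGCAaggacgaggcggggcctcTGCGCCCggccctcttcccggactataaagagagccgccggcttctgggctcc
SLC30A1, chr1:211579162-211579411, reverse strand: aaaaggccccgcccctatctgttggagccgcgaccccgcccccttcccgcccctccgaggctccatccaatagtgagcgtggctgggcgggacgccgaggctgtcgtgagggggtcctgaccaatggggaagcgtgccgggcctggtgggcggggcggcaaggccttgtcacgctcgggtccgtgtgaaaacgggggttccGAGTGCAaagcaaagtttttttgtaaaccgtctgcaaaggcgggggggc

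MT2A held 7 core matches, MT1X 4 and SLC30A1 1, and the same stretch of MTF1 (chr1:37859593-37859842, reverse strand) held 0. Of 35116 promoters searched in the same way, 24.8% held at least 1 match, 1.58% at least 3 and 0.0313% at least 7. The ARE core, TGACNNNGC, had 1 match each in MT2A, MT1X and SLC30A1 and 0 in MTF1, none overlapping an MRE match, and was in 10.9% of the promoters searched. These matches describe the letters in these windows and do not show binding.

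The 24 libraries held 3527000 to 4600951 counts each. KEAP1 itself was lower with sgKEAP1-1 under siTFEB/siTFE3 (log2 fold change -0.61, limma adjusted p = 2.59e-04) but did not pass with sgKEAP1-2 (-0.13, adjusted p = 0.422), and a guide that disrupts the protein need not lower the mRNA. NFE2L2, which encodes NRF2, had log2 fold changes of -0.22 and -0.14 there, neither passing. The NRF2 targets NQO1, GCLM and TXNRD1 rose with both guides under siTFEB/siTFE3, by 1.30 to 2.71 on the log2 scale. TFE3 fell with its siRNA by 1.57 to 1.74 on the log2 scale in the 3 guide backgrounds. TFEB, which had few reads, fell in both sgKEAP1 backgrounds but did not pass in sgCtrl cells (log2 fold change -1.96, adjusted p = 0.0858). Replicate 1 of siNC; sgKEAP1-1 and replicate 1 of siTFEB/siTFE3; sgKEAP1-2 stood apart on the second principal component, at 54.1 and 43.1 where the other libraries lay between -12.6 and 5.93. In the second of these libraries 4.42% of counts belonged to MTRNR2L8. The counts of members that passed are therefore given with and without these 2 libraries.

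Levels below are in CPM, the read count of a gene relative to the total of its library, scaled by trimmed-mean (TMM) factors. The libraries read only the 3′ end of each transcript, so counts were not divided by gene length. The labels do not say that replicates were separate cultures, so p-values measure only the spread between these samples, which may be technical. MT2A was the most abundant member and MT1M and MTF1 were the least; the lowest MT1M count in any library was 11 reads. The metallothionein genes are near copies of each other, and reads from one can be assigned to another. Of the 226 possible 75-base stretches in the last 300 bases of each transcript, 0 occurred exactly in another gene for MT2A, MT1E, MT1M, MT1A and MT1F, against 9.73% for MT1G and 11.9% for MT1X. Within 2 mismatches of another metallothionein lay 37.6% of the stretches of MT2A, 32.3% of MT1X, 31.4% of MT1G, 25.2% of MT1M, 18.1% of MT1A, 11.9% of MT1E and 2.21% of MT1F. Differences between these genes are uncertain to that extent. In bulk RNA, fewer cells expressing a gene and less RNA per cell cannot be told apart.

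In cells given siNC, all 6 metallothionein genes had lower mean levels with either KEAP1 guide. MT1M measured 62.7, 49.4, 53.1 and 37.03 CPM in the 4 sgCtrl libraries, 12.6, 11.7, 11.1 and 5.06 CPM with sgKEAP1-1 and 3.11, 5.11, 3.16 and 6.67 CPM with sgKEAP1-2. Each KEAP1-guide library was below every sgCtrl library, and the groups of the 2 KEAP1 guides overlapped. The log2 fold changes of MT1M against sgCtrl were -2.37 (SE 0.27) and -3.48 (SE 0.35). MT1G changed by -1.45 and -2.0 (SE 0.20 each), MT1F by -1.39 (SE 0.15) and -1.72 (SE 0.15), and MT1X by -1.10 (SE 0.18) and -1.55 (SE 0.19). MT1E changed by -0.93 (SE 0.13) and -1.26 (SE 0.13), and MT2A by -0.39 and -0.69 (SE 0.16 each). The order of the genes by size of change was therefore MT1M, MT1G, MT1F, MT1X, MT1E and MT2A with both guides. Of the 8 members, 6 lay below every sgCtrl library with sgKEAP1-1 (the 5 MT1 genes and SLC30A1) and 6 with sgKEAP1-2 (the 5 MT1 genes and MT2A), where 6.47% and 9.28% of all genes tested did. MTF1 had a log2 fold change of 0.51 (SE 0.18) and 0.30 (SE 0.18), and SLC30A1 of -0.50 (SE 0.16) and -0.13 (SE 0.15). Without the 2 libraries that stood apart, every member kept the sign of these changes, and MT1M changed by -2.51 and -3.48.

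The libraries given siTFEB/siTFE3 were not used in picking MT1M, and the effect of the KEAP1 guides was tested there. The members were chosen with earlier results of these data known, and these libraries carry the same guides in the same cell line. The p-values are therefore not those of an independent repeat of the changes seen under siNC. With sgKEAP1-1, 5 of the 8 members fell, 1 rose and 2 did not pass. With sgKEAP1-2, 6 fell, 0 rose and 2 did not pass. Among all 11152 genes, 4.81% fell and 5.69% rose with sgKEAP1-1, and 9.59% fell and 10.6% rose with sgKEAP1-2, or 10.5% and 20.2% in either direction. The median log2 fold change over the 8 members was -0.88 and -1.34, against 0.0030 and 0.0086 over all genes tested. Without the 2 libraries that stood apart, 6 members passed with sgKEAP1-1 and 5 with sgKEAP1-2, the call on MT2A being lost (adjusted p = 0.0517).

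**Figure D1:**
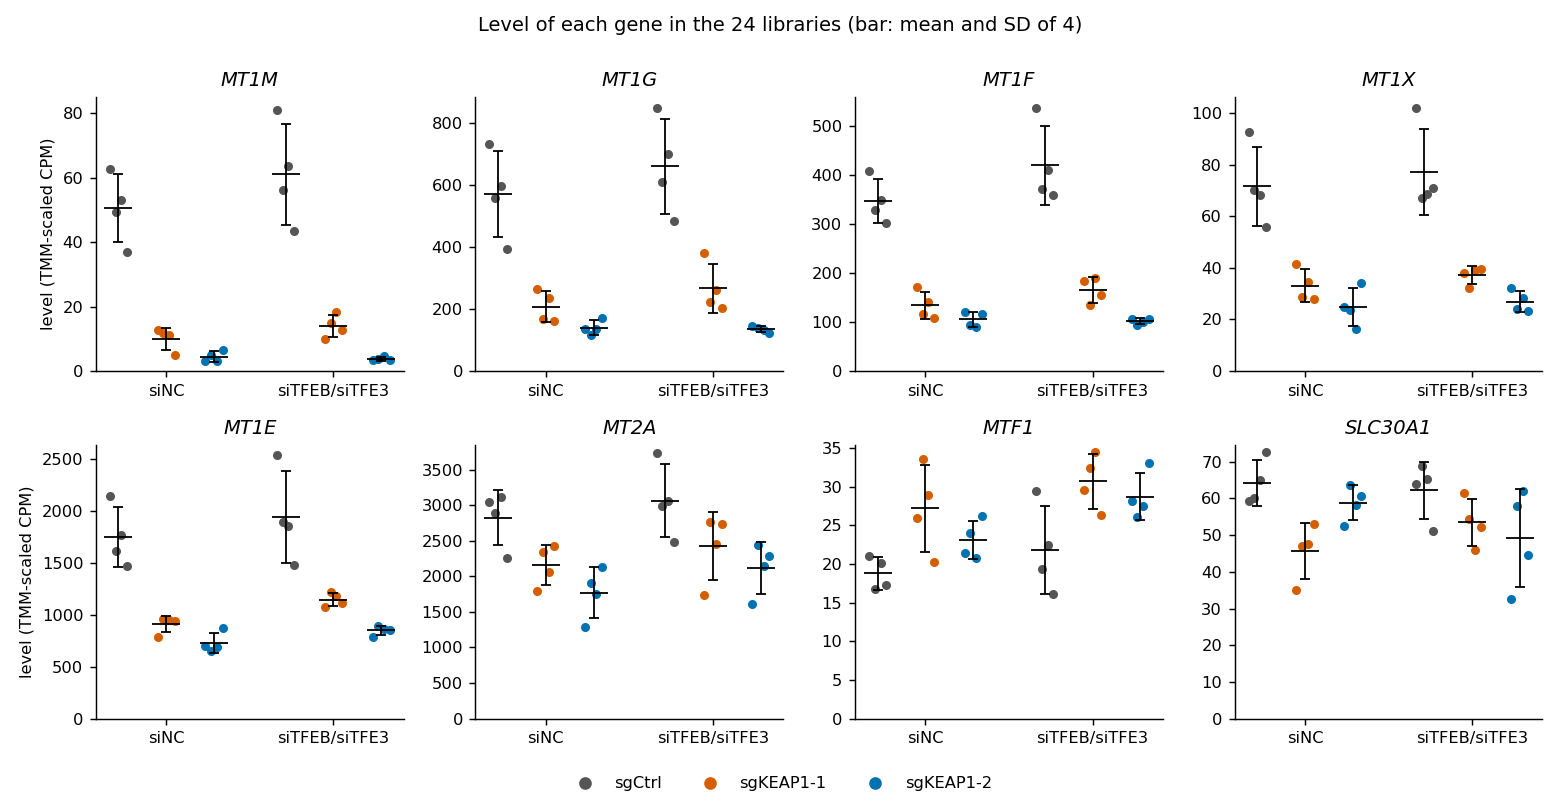
Level of each of the 8 genes in every library, in TMM-scaled CPM on linear axes from 0, for the 2 siRNA conditions and 3 guides; points from left to right within a group are replicates 1 to 4, and bars are the mean and SD of 4 libraries. For MT1M, the sgCtrl libraries given siTFEB/siTFE3 lie between 43.4 and 81.1 CPM and those with sgKEAP1-2 between 3.40 and 4.77 CPM.

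MT1M showed the largest change of the members under siTFEB/siTFE3 as well. It measured 81.1, 56.3, 63.5 and 43.4 CPM in sgCtrl cells, 9.94, 15.05, 18.2 and 12.6 CPM with sgKEAP1-1 and 3.40, 3.69, 4.77 and 3.47 CPM with sgKEAP1-2. The 3 groups did not overlap, and the sgKEAP1-2 libraries were the lowest. MT1M fell to 23.1% of the sgCtrl level with sgKEAP1-1 (log2 fold change -2.11, 95% interval -2.60 to -1.63, limma adjusted p = 5.18e-07) and to 6.65% with sgKEAP1-2 (-3.91, -4.67 to -3.15, adjusted p = 1.51e-08). Of 11152 genes, its log2 fold change was the 13th lowest with sgKEAP1-1 and the 2nd lowest with sgKEAP1-2.

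MT1G, MT1F and MT1X, further members of the MT1 group of metal-binding proteins, fell with both guides. MT1G measured 846, 611, 701 and 483 CPM in sgCtrl cells, 380, 222, 260 and 205 CPM with sgKEAP1-1 and 145, 138, 134 and 124 CPM with sgKEAP1-2, without overlap. MT1G fell to 40.0% of the sgCtrl level with sgKEAP1-1 (adjusted p = 2.72e-05) and to 20.9% with sgKEAP1-2 (adjusted p = 5.32e-09), log2 fold changes of -1.32 and -2.26. For MT1F the sgCtrl libraries held 537, 372, 412 and 360 CPM, against 185, 134, 191 and 155 CPM with sgKEAP1-1 and 107, 94.5, 100.2 and 106 CPM with sgKEAP1-2. These groups did not overlap either, and MT1F fell to 39.6% (log2 -1.34, SE 0.14) with the first guide and 24.6% (log2 -2.02, SE 0.15) with the second, with adjusted p of 2.90e-07 and 2.17e-10. MT1X held 102, 67.1, 68.6 and 70.9 CPM in sgCtrl cells, 37.8, 32.2, 39.3 and 39.4 CPM with sgKEAP1-1 and 32.2, 24.1, 28.2 and 23.4 CPM with sgKEAP1-2. It was lower in every library of either KEAP1 guide than in any sgCtrl library, falling to 49.0% (adjusted p = 2.12e-04) and 35.2% of the sgCtrl level (adjusted p = 1.47e-06).

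The 2 most abundant members changed least among the metallothioneins. MT1E measured 2541, 1896, 1849 and 1479 CPM in sgCtrl cells, 1070, 1216, 1180 and 1116 CPM with sgKEAP1-1 and 790, 894, 860 and 855 CPM with sgKEAP1-2, with no overlap among the groups. It fell to 60.1% of the sgCtrl level (adjusted p = 2.34e-04) and to 44.6% (adjusted p = 1.97e-07). MT2A, often taken as the main human metallothionein, measured 3730, 2985, 3058 and 2480 CPM in sgCtrl cells, 1731, 2771, 2459 and 2735 CPM with sgKEAP1-1 and 1608, 2446, 2139 and 2289 CPM with sgKEAP1-2. The sgKEAP1-1 libraries overlapped those of sgCtrl, whereas the sgKEAP1-2 libraries lay just below them. MT2A fell with sgKEAP1-2 (log2 fold change -0.53, interval -0.87 to -0.19, adjusted p = 0.0211), a call lost without sgCtrl replicate 1 (adjusted p = 0.0874) or sgKEAP1-2 replicate 1 (adjusted p = 0.0809), and its change with sgKEAP1-1 did not pass (-0.34, interval -0.68 to -0.01, adjusted p = 0.209). In all, 5 members with sgKEAP1-1 and 6 with sgKEAP1-2 lay below every sgCtrl library, where 8.11% and 9.24% of all genes did.

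**Figure D2:**
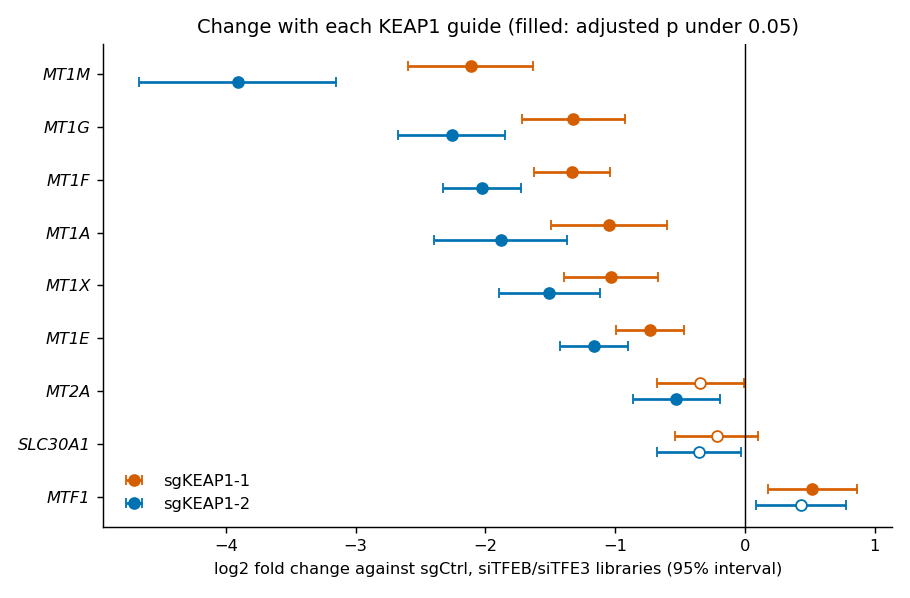
Log2 fold change of the 8 genes and of MT1A, a further metallothionein gene, with each KEAP1 guide against sgCtrl in the siTFEB/siTFE3 libraries; bars are 95% intervals, and filled points have an adjusted p under 0.05. The changes run from -3.91 for MT1M with sgKEAP1-2 to 0.52 for MTF1 with sgKEAP1-1.

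MTF1, the zinc sensor, had a higher mean with both KEAP1 guides, and SLC30A1, the zinc exporter, a lower one. MTF1 measured 29.5, 19.3, 22.5 and 16.1 CPM in sgCtrl cells, 29.6, 32.4, 34.5 and 26.3 CPM with sgKEAP1-1 and 28.2, 26.1, 27.5 and 33.1 CPM with sgKEAP1-2. The highest sgCtrl library overlapped both KEAP1-guide groups. MTF1 rose with sgKEAP1-1 (log2 fold change 0.52, interval 0.17 to 0.86, adjusted p = 0.0458). With sgKEAP1-2 the change of MTF1 did not pass (0.43, interval 0.08 to 0.78, adjusted p = 0.0743). The call with sgKEAP1-1 was lost without any one of sgCtrl replicates 2, 3 and 4 or sgKEAP1-1 replicates 1, 2 and 3, with adjusted p between 0.0655 and 0.175, and under edgeR (adjusted p = 0.0637). With sgKEAP1-2 it passed without sgCtrl replicate 1 (0.58, adjusted p = 0.0205). SLC30A1 measured 63.9, 68.8, 65.3 and 51.0 CPM in sgCtrl cells, 61.6, 54.3, 46.0 and 52.2 CPM with sgKEAP1-1 and 32.5, 57.8, 62.0 and 44.7 CPM with sgKEAP1-2. These groups overlapped, and neither change passed (-0.22, interval -0.54 to 0.10, adjusted p = 0.456, and -0.35, interval -0.68 to -0.03, adjusted p = 0.118). The lowest SLC30A1 value, 32.5 CPM, came from the sgKEAP1-2 library that stood apart, and without it and the other such library the change was -0.19 (adjusted p = 0.308). It passed without sgKEAP1-2 replicate 3 (-0.50, adjusted p = 0.0376).

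The make-up of the metallothionein reads is described here without a test. MT2A took 48.9% ± 1.32 (SD, n = 4) of all metallothionein reads in sgCtrl cells given siTFEB/siTFE3, 58.8% ± 6.09 with sgKEAP1-1 and 64.8% ± 3.72 with sgKEAP1-2. The highest share in an sgCtrl library, 49.99%, was below the lowest with sgKEAP1-1, 50.3%. For every 1000 MT2A reads there were 19.7 ± 1.90 MT1M reads (SD, n = 4) in sgCtrl cells, 5.80 ± 1.17 with sgKEAP1-1 and 1.84 ± 0.384 with sgKEAP1-2. Under siNC these ratios were 17.8 ± 1.92, 4.86 ± 2.04 and 2.51 ± 0.549. These ratios compare genes within a library and do not depend on the scaling between libraries.

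**Figure D3:**
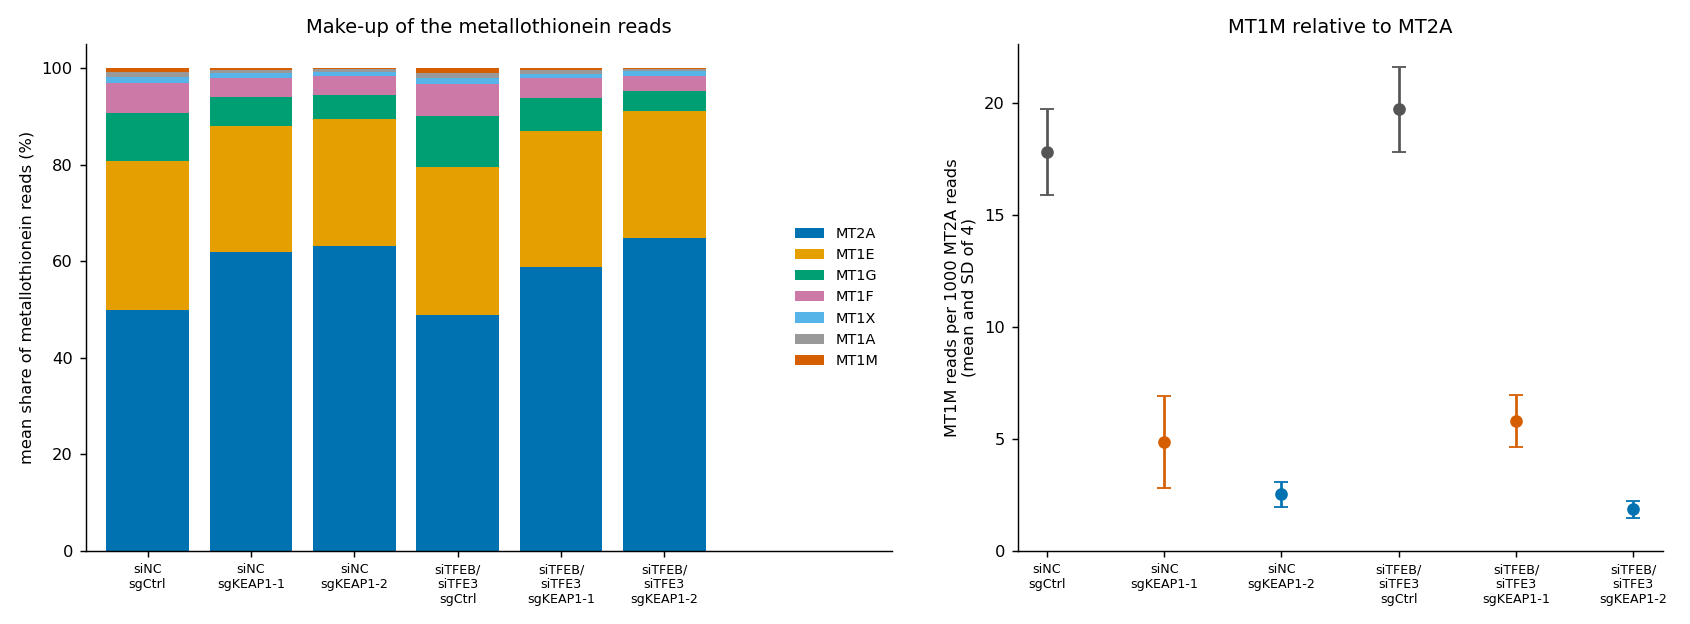
Left, mean share of each gene in the metallothionein reads of the 6 groups, in percent; right, MT1M reads per 1000 MT2A reads, with the mean and SD of 4 libraries. Under siTFEB/siTFE3, MT2A is 48.9% of these reads in sgCtrl cells and 64.8% with sgKEAP1-2, and MT1M is at 19.7 and 1.84 per 1000 MT2A reads.

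The 2 KEAP1 guides were then compared with each other under siTFEB/siTFE3. All 8 members had a lower level with sgKEAP1-2 than with sgKEAP1-1, although SLC30A1 turned higher without the 2 libraries that stood apart (log2 difference 0.0308), without sgKEAP1-2 replicate 1 alone (0.0306) and without replicate 1 of every group (0.0901). The 8 had a median log2 difference of -0.45 against 0.010 over all genes, and 0 of the 8 passed limma's test without a replicate block, where 0.00897% of all genes did. The differences were -1.80 for MT1M (interval -2.62 to -0.97), -0.94 for MT1G (-1.36 to -0.52) and -0.69 for MT1F (-1.002 to -0.38), each with an adjusted p of 0.152. At an unadjusted p under 0.05 there were 5 members: MT1M, MT1E, MT1F, MT1G and MT1X. These 5 lay below every sgKEAP1-1 library, where 2.69% of all genes did. The call depended on the fit. The sample descriptions give all 6 libraries of a replicate number the same prefix, and with the replicate number as a block limma called MT1M, MT1F and MT1G (adjusted p = 0.0121, 0.00523 and 0.00397). Without the block, edgeR's quasi-likelihood test called MT1M (adjusted p = 0.00805), and DESeq2 called MT1M, MT1F and MT1G (adjusted p = 3.82e-06, 0.00577 and 0.00199).

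Knockdown of TFEB and TFE3 was compared with siNC within each guide. These contrasts share the siNC libraries in which MT1M was picked. In sgCtrl, sgKEAP1-1 and sgKEAP1-2 cells 0 of the 8 members passed limma's test, where 0.0179%, 0.0897% and 0.359% of all genes did, and edgeR and DESeq2 also called 0. The numbers of members at an unadjusted p under 0.05 were 0, 2 and 0, the 2 being MT1E and MT1F in sgKEAP1-1 cells. MT1E held 790 to 962 CPM with siNC and 1070 to 1216 CPM with siTFEB/siTFE3 in those cells, without overlap, as did 2.14% of all genes in that direction (log2 fold change 0.33, SE 0.13, adjusted p = 0.496). For MT1M the log2 fold change was 0.26 in sgCtrl cells (interval -0.11 to 0.64), 0.52 in sgKEAP1-1 cells (-0.10 to 1.15) and -0.17 in sgKEAP1-2 cells (-1.15 to 0.82). For MT2A it was 0.11 (-0.22 to 0.45), 0.15 (-0.18 to 0.49) and 0.27 (-0.07 to 0.61). The p-values do not show that the knockdown left these genes alike, and the intervals give the range of changes that remain possible.

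Whether the effect of a KEAP1 guide differed with the knockdown was tested as an interaction, which contains the siNC contrasts and so is not separate from the choice of MT1M. Among the 8 members 0 passed for either guide, and 0 had an unadjusted p under 0.05; edgeR and DESeq2 called 0 as well. Of all genes 0% passed, and 304 and 454 genes had an unadjusted p under 0.05. For MT1M the interaction was 0.26 (interval -0.47 to 0.99) with sgKEAP1-1 and -0.43 (-1.48 to 0.62) with sgKEAP1-2. For MT1E, whose interval was the narrowest of the members, it was 0.19 (-0.18 to 0.57) and 0.09 (-0.28 to 0.47).

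MT1A, the other metallothionein gene with reads here, was lower with both guides under siTFEB/siTFE3. It measured 106, 61.8, 66.7 and 44.1 CPM in sgCtrl cells, 28.4, 35.7, 36.9 and 27.9 CPM with sgKEAP1-1 and 20.1, 20.2, 17.0 and 15.1 CPM with sgKEAP1-2, without overlap. MT1A fell by 1.05 with sgKEAP1-1 (adjusted p = 0.00176) and by 1.88 with sgKEAP1-2 on the log2 scale (adjusted p = 3.09e-06). Of the 7 metallothionein genes measured, 6 fell with sgKEAP1-1 and 7 with sgKEAP1-2, where 4.81% and 9.59% of all genes fell. The 7 include MT2A, whose call was lost without the 2 libraries that stood apart (adjusted p = 0.0517), and in 5 of 22 settings in all.

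**Figure D4:**
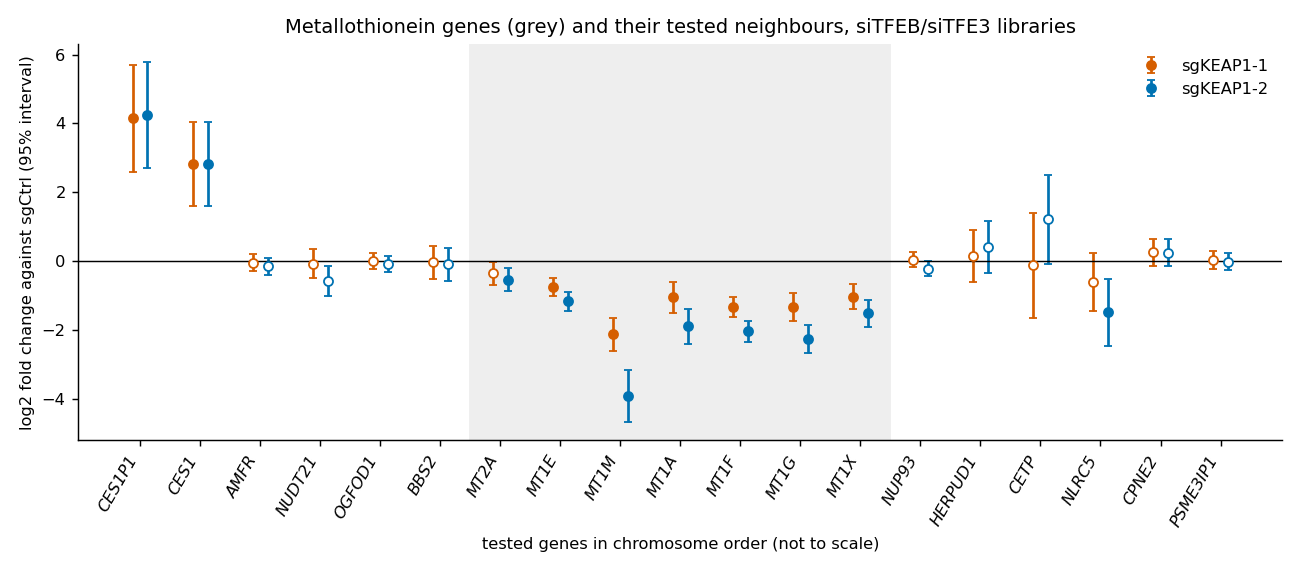
Log2 fold change with each KEAP1 guide against sgCtrl, under siTFEB/siTFE3, of the 7 metallothionein genes (grey band) and the 6 nearest tested genes on each side, in chromosome order and not to scale; bars are 95% intervals and filled points have an adjusted p under 0.05. Apart from CES1P1 and CES1, which rose, and NLRC5 with sgKEAP1-2, the neighbours did not pass.

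The genes beside the metallothioneins on chromosome 16 are given for context. Among all genes tested, 4.81% fell and 5.69% rose with sgKEAP1-1, and 9.59% fell and 10.6% rose with sgKEAP1-2. Among the 6 nearest tested genes on each side, 0 fell, 2 rose and 10 did not pass with sgKEAP1-1, and 1 fell, 2 rose and 9 did not pass with sgKEAP1-2, and the medians of their log2 fold changes were 0.03 and -0.04. The 2 that rose were CES1 (2.81 and 2.82), a liver carboxylesterase, and its near-identical copy CES1P1 (4.15 and 4.24), whose reads may be shared. NLRC5, an activator of MHC class I genes, fell with sgKEAP1-2 (-1.48, adjusted p = 0.0274).

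Other genes of metal handling were read from lists of zinc transporters, copper genes and metallothionein regulators. Of all genes tested, 10.5% passed with sgKEAP1-1 and 20.2% with sgKEAP1-2, in either direction. The SLC30 genes carry zinc out of the cytosol, and of 7 measured, SLC30A1 included, 1 fell and 1 rose with each guide. SLC30A3, a vesicular zinc transporter, held 8.16, 9.17, 9.73 and 15.6 CPM in sgCtrl cells and 66.8 to 91.5 CPM in the libraries of the KEAP1 guides (log2 fold change 2.80 and 3.01, adjusted p = 7.42e-09 and 6.03e-10). SLC30A10, known as a manganese exporter, fell from 21.2 ± 4.37 CPM (SD, n = 4) to 7.13 ± 1.29 and 6.88 ± 1.42 CPM (log2 fold change -1.55 and -1.59, adjusted p = 7.63e-06 and 3.27e-06).

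The SLC39 genes carry zinc into the cytosol. Of 10 tested, out of 11 in the table, 2 fell with sgKEAP1-1 and 2 fell and 1 rose with sgKEAP1-2. In either direction, 10.5% and 20.2% of all genes tested passed. SLC39A14, the liver transporter ZIP14 for zinc, iron and manganese, fell by 0.71 (adjusted p = 0.0280) and by 1.15 on the log2 scale (adjusted p = 2.37e-04). It was lowest, at 152 CPM, in the sgKEAP1-2 library that stood apart, the other 3 holding 228 to 292 CPM. SLC39A5, a transporter of the basolateral membrane, fell by 0.85 (adjusted p = 0.00298) and by 0.98 (adjusted p = 5.44e-04). SLC39A10 rose with sgKEAP1-2 (1.07, adjusted p = 0.00683) and did not pass with sgKEAP1-1 (0.73, adjusted p = 0.120).

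Among 10 copper-handling genes, 1 rose with sgKEAP1-1, and 2 rose and 1 fell with sgKEAP1-2. For this and the other lists below, 10.5% and 20.2% of all genes tested passed with these guides, in either direction. SOD1, the copper- and zinc-binding superoxide dismutase, rose with both (0.23, adjusted p = 0.0437, and 0.25, adjusted p = 0.0158). ATP7B, the copper exporter of hepatocytes, fell with sgKEAP1-2 (-0.79, adjusted p = 0.00196), and CP, which encodes the plasma copper protein ceruloplasmin, rose (0.75, adjusted p = 0.00796). Of 4 regulators of metallothionein genes measured, MTF1 was the only one that passed, with sgKEAP1-1; NR3C1, the glucocorticoid receptor gene, had log2 fold changes of -0.07 and 0.12, neither passing. Glucocorticoids also induce metallothioneins, and of 9 glucocorticoid-induced genes measured, 2 fell and 1 rose with sgKEAP1-1, and 2 fell and 2 rose with sgKEAP1-2. SGK1, a kinase, fell by 1.17 and 1.37 (adjusted p = 2.36e-04 and 2.33e-05) and PER1, a clock gene, by 0.80 and 0.86 on the log2 scale (adjusted p = 0.0359 and 0.0155), whereas ERRFI1, an inhibitor of EGF receptor signaling, rose by 1.10 and 1.19 (adjusted p = 7.53e-04 and 1.62e-04).

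**Figure D5:**
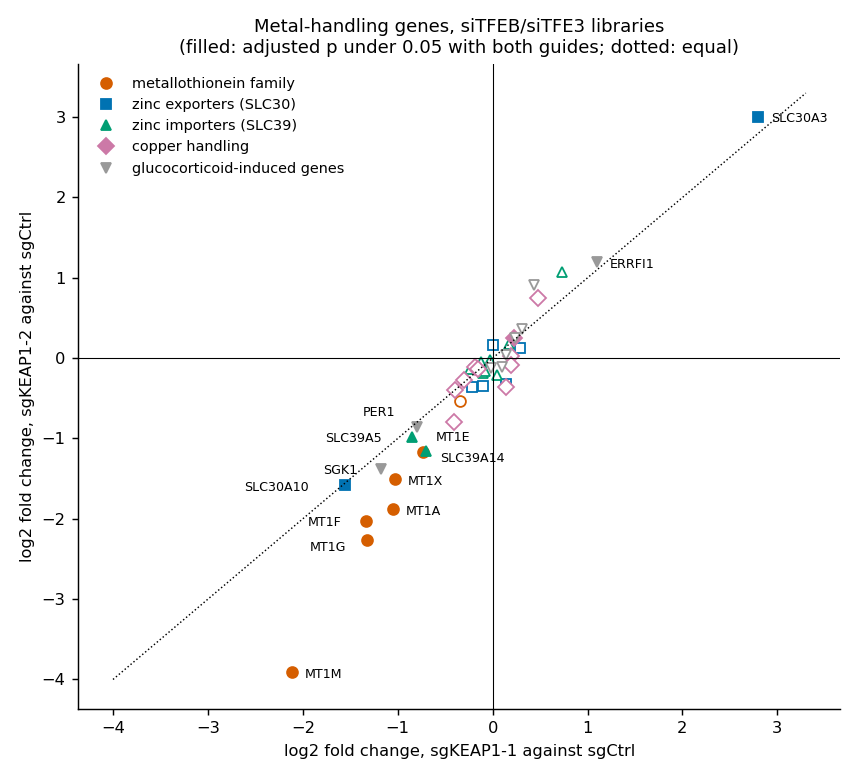
Log2 fold change with sgKEAP1-2 against that with sgKEAP1-1, both against the same sgCtrl libraries given siTFEB/siTFE3, for the genes of 5 lists; filled points passed with both guides and the dotted line marks equal change. The metallothionein genes lie below the line, with MT1M at -2.11 and -3.91, and SLC30A3 lies at the opposite corner, at 2.80 and 3.01.

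Some hepatocyte markers moved with the same guides in these HepG2 cells. Among all genes tested, 4.81% fell and 5.69% rose with sgKEAP1-1, and 9.59% fell and 10.6% rose with sgKEAP1-2. Of 8 hepatocyte markers, ALB, AFP, APOA1, FGB and TF fell with both guides and 3 did not pass with either. Their summed level ranged from 23275 to 31968 CPM in sgCtrl libraries given siTFEB/siTFE3, from 16160 to 17166 CPM with sgKEAP1-1 and from 12831 to 19276 CPM with sgKEAP1-2. In this cell line, 4 of 9 genes listed as markers of other cells were measured. Their summed level was 434 to 569 CPM in sgCtrl libraries and 827 to 1142 CPM with the KEAP1 guides, but they did not rise as a set. With sgKEAP1-1, 1 rose, 1 fell and 2 did not pass, and with sgKEAP1-2, 1 rose and 3 did not pass. The median log2 fold changes of the 4 were -0.25 and 0.20. KRT19, a keratin of bile duct cells, rose by 1.31 and 1.47 on the log2 scale, while PDGFRB, a marker of mesenchymal cells, fell with sgKEAP1-1. The part of these changes in the metallothionein result was not tested.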

How the data were processed

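HepG2 RNA was sequenced from the 3′ end (QuantSeq, single-end reads of 75 bases), and the authors deposited 1 table of raw read counts per gene for the 24 libraries. The submitters' processing notes name FastQC 0.72, cutadapt 1.16, STAR 2.7.5b, featureCounts 1.6.3 and limma 3.40.6. The study's methods give the genome as hg19 and the processing notes as hg38; gene positions are printed on GRCh37 and promoters on GRCh38.p14, and the counts were used by gene identifier alone. The annotation and the strand setting of the counting are not given in the sources used here.

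Of 13446 rows, 1414 had no gene identifier and were left out; they held 1.35% to 2.57% of the counts. Totals per library ranged from 3527000 to 4600951. Groups and replicate numbers came from the sample titles. Each replicate number goes with 1 date-like prefix in the sample descriptions across all 6 groups. The labels do not say whether it marks a day or batch, and the study's methods name no replicate block. The fit was therefore made without the block, and the blocked fit is given where it changes a call. With sgKEAP1-1 under siTFEB/siTFE3, the block lowered the standard error of MT1F from 0.14 to 0.10 and of MT1G from 0.19 to 0.14. That of MT1E was 0.13 in both fits. Counts were scaled with TMM factors, genes with too few reads were removed with edgeR's filter by group, and all 24 libraries were fitted together with limma-voom (R 4.3.3, limma 3.58.1, edgeR 4.0.16), with p-values adjusted by Benjamini-Hochberg over 11152 genes and a threshold of 0.05. Intervals are 95% intervals. The procedure was tested on simulated data. These had no replicate effect and no libraries that stood apart, so dependence on those features was not tested there. Alternatives were edgeR's quasi-likelihood test, DESeq2 1.42.0, other size factors, filters and weights, the replicate number as a block, a fit of only the groups compared and leaving out libraries; leaving out the 2 libraries that stand apart was added after the data were seen.

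The members and the 11 gene lists were chosen with earlier results of these data known. Beside the members, the text names label-check genes, other metallothionein genes and chromosome 16 neighbours. It also names the 3 non-member genes of most similar pattern for each metallothionein. From each list it names up to 4 genes that passed in 1 direction with both guides. SLC39A10, ATP7B, CP, NR3C1 and PDGFRB lie outside this rule and were named after their values were seen. All hepatocyte markers that passed with both guides are named, which exceeds the limit of 4. MT1B, MT1H, MT3, MT4 and the 7 metallothionein pseudogenes looked up had no row under their gene identifiers in the count table, so they could not be analysed.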

Additional observations from a re-analysis of the deposited data

Results flagged for a closer look

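In 48 combinations of a member and a group of 4 libraries, 2 held a library far from the others by Dixon's ratio of gap to range; chance alone marks about 1 in 20. MT1E was at 790.1 CPM in replicate 1 of siNC; sgKEAP1-1, where the other libraries held 942.9 to 961.5 CPM (ratio 0.891). This library is 1 of the 2 that stand apart on the second principal component. MT1X was at 101.8 CPM in replicate 1 of siTFEB/siTFE3; sgCtrl, where the others held 67.12 to 70.86 CPM (ratio 0.892).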

How the results depend on the processing

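MT1M, MT1E, MT1F, MT1G and MT1X fell with each KEAP1 guide under siTFEB/siTFE3 in 22 of 22 settings, while MTF1 passed with sgKEAP1-1 in 11 of 22 and MT2A with sgKEAP1-2 in 17 of 22. For sgKEAP1-2 against sgKEAP1-1 the number of members passing was 1 with edgeR, 3 with DESeq2, 2 with quality weights and 0 to 1 on leaving out replicates. Over all genes, the calls with sgKEAP1-1 under siTFEB/siTFE3 went from 1170 to 1991 with quality weights and ranged from 491 to 1729 on leaving out replicates; with sgKEAP1-2 the 2253 calls ranged from 1248 to 2594. The knockdown calls in sgCtrl, sgKEAP1-1 and sgKEAP1-2 cells (2, 10 and 40) were 11, 48 and 108 with DESeq2, 10, 52 and 106 with quality weights, 4, 23 and 69 without the 2 libraries that stand apart, and ranged from 1 to 13, 2 to 37 and 4 to 109 on leaving out replicates; fitting only the groups compared gave 1 in sgKEAP1-1 and 11 in sgKEAP1-2 cells. Between the KEAP1 guides the 1 gene called became 3 with edgeR, 20 with DESeq2, 5 with quality weights, 0 with only the groups compared, 4 without the 2 libraries and 0 to 8 on leaving out replicates. The causes were not tested.

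Replicate numbers are shared across groups, and each goes with 1 prefix in the sample descriptions, which the labels do not explain. Same-numbered samples correlated in their deviations at -0.066 to 0.26, over 0.1 in 11 of 32 pairs, so the correlations alone do not settle the pairing. With the replicate block, 3 members passed between the KEAP1 guides (MT1M, MT1F and MT1G), with 11 genes called, and the knockdown called 4 genes in sgCtrl and 30 in sgKEAP1-1 cells; it changed no other call on a member.

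Some small differences changed sign, none passing in either direction. The interaction of MTF1 with sgKEAP1-1 was -0.0403 with edgeR, -0.0410 with DESeq2, -0.0401 with quality weights and -0.0088 without the 2 libraries. That of MT1X with sgKEAP1-2 was -0.0515 and -0.0379 with quality weights and without the 2 libraries, that of MT2A with sgKEAP1-1 -0.0476 without them, and the difference between KEAP1 guides of SLC30A1 0.0308 without them. On leaving out replicates, interactions with sgKEAP1-1 ranged from -0.0557 to 0.17 for MT1F, -0.0582 to 0.29 for MT1G, -0.0595 to 0.56 for MT1M, -0.0605 to 0.21 for MT1X, -0.0544 to 0.19 for MT2A and -0.15 to 0.15 for MTF1, and with sgKEAP1-2 from -0.0233 to 0.23 for MT1E, -0.22 to 0.37 for MT1X, -0.0120 to 0.28 for MT2A and -0.0003 to 0.27 for MTF1. Knockdown effects in sgKEAP1-2 cells ranged from -0.13 to 0.0196 for MT1F, -0.15 to 0.0933 for MT1G, -0.45 to 0.10 for MT1M and -0.0792 to 0.39 for MT1X, and in sgCtrl cells from -0.0325 to 0.24 for MT1X and -0.12 to 0.11 for SLC30A1. The guide difference of SLC30A1 ranged from -0.33 to 0.0901. With 11 MT1M reads in the lowest library, its small differences are the least precise.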

Other observations

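The genes whose group means most resembled those of a metallothionein were ranked by Pearson's r over the 6 group means, as a description; all groups share the sgCtrl contrast and r says nothing of shared function. For MT1M these were KHDRBS3, PSRC1 and MT1A, for MT1E ZNF37BP, RHNO1 and MND1, and for MT1F HSD17B7, NKAPP1 and HNRNPH1. For MT1G they were MTTP, KHDRBS3 and HNRNPH1, for MT1X KIF22, SKA2 and DPP4, and for MT2A RAB23, FKBP3 and H2AZ2. Pearson's r does not reflect the size of a change. Under siTFEB/siTFE3, KHDRBS3 had log2 fold changes of -0.43 with sgKEAP1-1 and -0.78 with sgKEAP1-2, against -2.11 and -3.91 for MT1M. MTTP, which loads lipid onto apolipoprotein B, fell under siTFEB/siTFE3 by 1.90 with sgKEAP1-1 and 3.25 with sgKEAP1-2 on the log2 scale (limma adjusted p = 1.69e-07 and 4.50e-10). DPP4, a cell-surface peptidase, fell by 0.88 and 1.30 (adjusted p = 4.67e-05 and 1.22e-07).

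Within the sgCtrl groups, replicate 1 held the highest level of all 6 metallothionein members under siTFEB/siTFE3, and replicate 4 the lowest of all 6 under siNC. The opposite ends were not shared by all 6. Under siNC, MT2A was highest in replicate 3 (3117 CPM), and under siTFEB/siTFE3, MT1X was lowest in replicate 2 (67.1 CPM). Over all 24 libraries, deviations from the group mean correlated between members at -0.16 to 0.80 in 15 pairs (median 0.46). MT1G measured 733 CPM in replicate 1 and 395 CPM in replicate 4 of the siNC group.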
